A study of Mus musculus with 6 samples.

Results

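Reads annotated as piRNA were found in the RNA-induced silencing complex (RISC) of mouse brain. They comprised 763 of 143934 read sequences in the table of RISC-bound short RNAs (R-sRNAs), under 90 piRNA names. The members were chosen by annotation alone, as every read sequence whose best RNA match was of the class piRNA and which carried no miRNA label. The rule uses no measured level, although it was set with earlier results of these data known. R-sRNAs were isolated from cortex combined with hippocampus of male BL6 (C57BL/6J) mice, 3 aged 2 months (2M) and 3 aged 18 months (18M), and neither group carried a transgene or received a treatment according to the labels and methods. Argonaute proteins, which hold the guide RNA in RISC, were pulled down with a GW182 peptide and the RNA that came with them was sequenced, 1 library per mouse as far as the labels tell, so that p-values measure the spread between these libraries only. Values are RPM, reads scaled by the authors to the same total in each library.

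piRNAs are guide RNAs of PIWI proteins, the germ line branch of the Argonaute family, where they silence transposons. They are longer than miRNAs and mostly start with uridine (T in the reads). Databases of piRNAs were built largely by sequencing short RNAs of testis and also hold entries that are identical to pieces of abundant structural RNAs. Each R-sRNA carries a 6mer seed at read positions 2 to 7, and the 6mer seed viability is the percent of cells that survive an siRNA with that seed, a mean that the authors took from 3 lines of mouse cells. Toxic seeds are those with a low viability.

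Sequences of the leading names, and others that the results turn on, are shown here, 5′ to 3′ and as DNA, as the table gives them. The first set belongs to DQ540915, the most abundant name, and shows how the first base of the read set the seed. The capitals mark the 6mer seed, and the name gives the position in 7SL RNA at which the read starts.
position 279: aCATAGCgagaccccgtctctt
position 280: cATAGCGagaccccgtctctt
position 281: aTAGCGAgaccccgtctctt
position 282: tAGCGAGaccccgtctctt

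The next set shows the ends of DQ540915 reads, with the bases past the last annotated base of 7SL RNA in capitals.
T added: atagcgagaccccgtctcttT
A added: atagcgagaccccgtctcttA
A and T added: atagcgagaccccgtctcttAT

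The third set holds the 6 most abundant reads of DQ539904, which shared their last base and differed in length. The capitals again mark the seed.
27 nt: aAGTCAGccctcgacacaagggtttgt
26 nt: aGTCAGCcctcgacacaagggtttgt
24 nt: tCAGCCCtcgacacaagggtttgt
22 nt: aGCCCTCgacacaagggtttgt
17 nt: tCGACACaagggtttgt
16 nt: cGACACAagggtttgt

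The last set compares members with the miRNA reads nearest to them. Capitals mark the positions that differ.
miR-376b-3p read: atcatAgAggaacatccactt
position 6 changed: atcatGgAggaacatccactt
DQ702902 read: atcatGgGggaacatccactt
miR-128-3p read: tcacagtgaaccGGtctctttt
DQ718977 read: tcacagtgaaccTCtctctttt
miR-532-5p read: catgccttgagtgtAggaccgt
DQ708952 read: catgccttgagtgtGggaccgt

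The libraries held 19272046 to 25080484 recovered reads, of which 4761 to 6111 were member reads. Neuronal marker miRNAs (5 of 5 found) summed to 211301 to 268408 RPM. Of 5 miRNAs of germ cells only 1 was listed in the table, at 0 to 0.238 RPM. The 2 pituitary markers summed to 2521 RPM in 2M replicate 1 and to 286 to 355 RPM in the other 5 libraries, and the part of this difference in the results below was not tested beyond leaving that library out. No pair of libraries agreed within sampling noise, the chi-square per degree of freedom being at least 25.97.

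Member reads summed to 227, 216 and 237 RPM in the 3 2M libraries and to 317, 216 and 271 RPM in the 3 18M libraries. They made up 0.552% to 0.728% of the reads without a miRNA label. Most reads of the piRNA class were set aside by the rule, since 397 further sequences under 10 piRNA names carried a miRNA label and summed to 1390, 1307 and 1377 RPM at 2M and to 1442, 1468 and 1547 RPM at 18M. These sums did not overlap between the ages, being higher at 18M, while those of the members did. The sums of the labelled sequences were not tested alone. Members were thus 12.8% to 18.0% of the reads of the class. The labelled sequences were chiefly miR-744-5p under DQ696996 (580 RPM), miR-532-5p under DQ708952 (360 RPM), miR-3102-3p under DQ720186 (229 RPM), miR-532-3p under DQ713872 (143 RPM) and miR-1839-5p under DQ712837 (75.4 RPM).

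Few sequences carried most of the member reads. DQ540915 alone held 45.1% of them, both leading names together 66.9%, and the 10 leading names 83.2%. The 39 sequences that averaged 1 RPM or more held 56.6% of the reads, and the median member had 0.0935 RPM. Only 23 of the 90 names reached a mean of 1 RPM, and 26 were below 0.1 RPM. The entries themselves were 19 to 32 nt long with a median of 29 nt, and 76 of the 90 were of 25 to 32 nt. Reads under entries over 24 nt reached the full length of their entry in 1.99% of cases, against 59.3% under the 14 shorter entries.

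Member reads matched structural RNAs of the cell. Of the 763 sequences, 664, holding 94.1% of the reads, could be placed by matching them to RefSeq miRNA hairpins, GENCODE transcripts and the other classes of the table. 7SL RNA, the RNA of the signal recognition particle that brings ribosomes to the endoplasmic reticulum, took 168 sequences and 46.0% of the reads. Ribosomal RNA took 125 sequences and 25.99%. miRNA genes took 212 sequences and 12.4%, small nuclear RNAs (snRNAs) of the spliceosome 66 sequences and 5.08%, mitochondrial tRNAs 58 sequences and 2.39%, and 99 sequences with 5.88% of the reads were not placed. The remaining few fell to other transcripts (20 sequences), snoRNAs (10), reads of the tRNA class (4) and another small RNA (1).

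**Figure D1:**
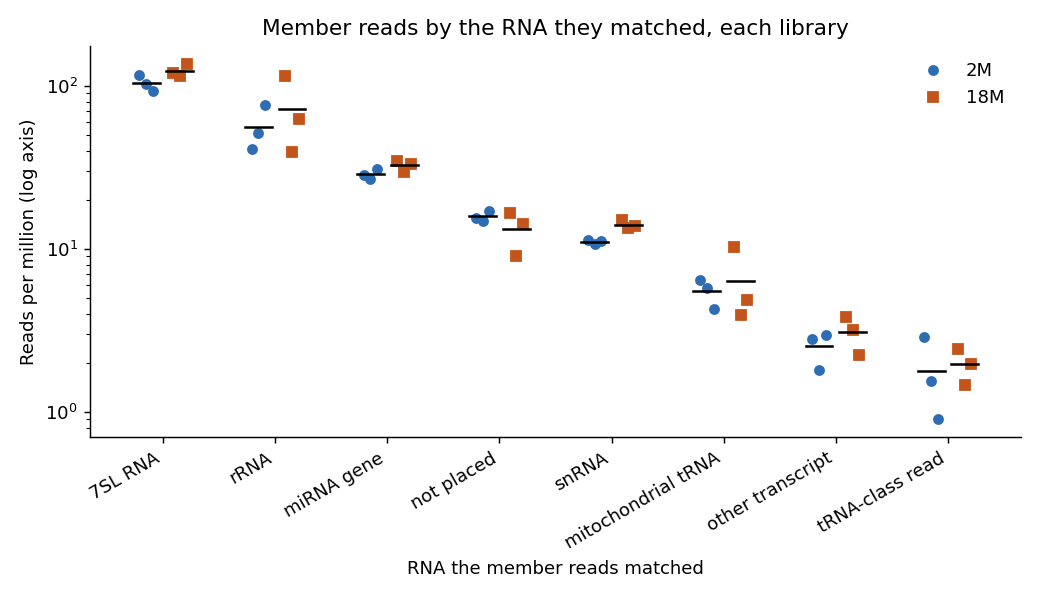
Member reads by the RNA they matched, in RPM on a log axis, with 1 point per library (circles 2M, squares 18M) and a bar at the mean of the 3 libraries. The 8 most abundant groups are shown. 7SL RNA lay highest, at 92.8 to 137 RPM, rRNA varied most in absolute terms, at 39.3 to 114 RPM, and only the snRNA points of the 2 ages stood apart. Of all names tested, 6.02% stood apart in this way, higher at 18M.

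Exact matches covered fewer reads, and none was to a transcript of the biotype rRNA. The transcripts used held no full rRNA repeat, so that rRNA members could also be placed by a run shared with reads of the rRNA class. Of the members, 194 sequences with 37.7% of the reads were identical to part of a GENCODE transcript. By biotype these were miRNA (52 sequences, 29.2% of reads), misc_RNA (46, 20.5%), snRNA (57, 4.73%), Mt_tRNA (42, 1.72%), lincRNA (18, 0.934%), retained_intron (10, 0.513%) and snoRNA (8, 0.314%), and a sequence could fall under more than 1. The high share of the biotype miRNA came from Gm47295 and Gm47299, which GENCODE lists as miRNA genes over the last bases of the 7SL genes Rn7s1 and Rn7s2. Within the table itself, 122 members (24.7% of reads) shared at least 16 bases with an rRNA-class read, 84 (5.66%) with an mRNA-class read, 58 (2.21%) with a miRNA-labelled read, 36 (2.25%) with a tRNA-class read, 31 (1.95%) with an unlabelled read of the miRNA class and 16 (0.901%) with an unmatched read. For 449 sequences (64.0% of reads) no other class shared such a run.

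DQ540915 lay at the very end of 7SL RNA. Its reads matched the last bases of Rn7s1 (chr12:69159295-69159594, GRCm38, plus strand, a misc_RNA gene of 300 nt) and of Rn7s2 (chr12:69361182-69361481, minus strand), and reads of both copies could not be told apart. The name summed to 115, 100.2 and 91.0 RPM in the 2M libraries and to 116, 113 and 135 RPM in the 18M libraries. The 2 ages overlapped, and the difference did not pass the test (log2 fold change 0.25 ± 0.15 SE, adjusted p = 0.612, limma).

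The first base of these reads was spread over a few neighbouring positions, each with its own seed. Position 281 began 44.1% of DQ540915 reads (49.3 RPM), with the seed UAGCGA and a viability of 87.1%. Position 282 began 20.9% with a viability of 70.9%, position 280 began 7.41% with 91.1%, and position 279 began 16.01% with a viability of only 8.2%. A shift of 1 or 2 bases separated a nontoxic from a toxic seed, as the printed reads show. Reads with a viability of at least 70% made up 80.3% of the name. Nearly all reads in the table with the seed UAGCGA were members (99.5% of 49.7 RPM).

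**Figure D2:**
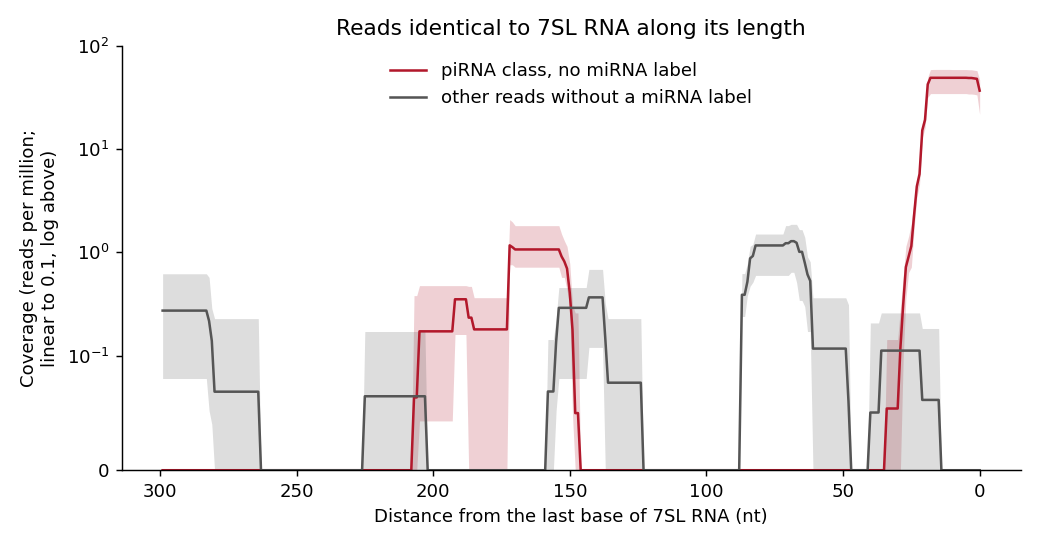
Coverage of 7SL RNA by reads identical to it, against the distance from its last base in nt, with the mean of the 6 libraries as a line and their range shaded (y axis linear to 0.1 RPM and logarithmic above). Members reach 49.3 RPM near the last base, and other unlabelled reads reach at most 1.28 RPM, at position 231 of the RNA.

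Member coverage in these 6 libraries lay near the last base, apart from minor names such as DQ540542 (1.26 RPM) further inside the RNA. At position 284, where members covered 49.3 RPM, other unlabelled reads identical to 7SL RNA covered 0.0613 RPM, and no miRNA-labelled read was identical to any part of the RNA. All 147 sequences of the table that held bases 283 to 295 were members.

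The last bases of DQ540915 reads varied as well. On average over the 6 libraries, 32.6% of reads ended at the last annotated base, 11.3% ended before it and 20.5% ran on by 1 or 2 T, which Gm47295 and Gm47299 also hold. A further 33.2% ended with bases starting with an A that neither copy holds. A single A was the most common of these ends (21.4% of reads), followed by A and T (7.10%). The share ending at the last annotated base was 32.3%, 31.9% and 23.8% in the 2M libraries and 34.1%, 38.7% and 34.9% in the 18M libraries. The share that ran on by T was 20.6%, 25.3% and 21.3% at 2M and 17.04%, 19.8% and 18.8% at 18M. These shares did not overlap between the ages, being higher and lower at 18M, respectively, while the share with an added A did (30.03% to 38.5% at 2M, 26.7% to 35.7% at 18M). Such shares sum to 100% and are not independent, and they were not tested.

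A shift of the same kind was seen at the first base. Position 281 began 40.2% to 42.9% of the reads at 2M and 44.2% to 47.9% at 18M, and position 279 began 17.2% to 18.2% at 2M and 12.4% to 17.2% at 18M. Position 280, whose seed had a viability of 91.1%, was lower at 18M too (7.16% to 8.95% at 2M, 6.21% to 7.02% at 18M), and position 282 overlapped. These shares were not tested either. The mean seed viability of all 7SL members was 66.9% to 67.8% in the 2M libraries and 68.6% to 70.8% in the 18M libraries, without overlap. An exact permutation test gave an unadjusted p = 0.1, the smallest that 3 against 3 libraries allow. The mean viability of tRNA-class reads also rose without overlap (61.3% to 62.03% at 2M, 62.6% to 63.5% at 18M). That of miRNA-labelled reads fell without overlap (58.03% to 58.2% at 2M, 57.5% to 57.95% at 18M). The mean of members from rRNA, miRNA genes, snRNA and mitochondrial tRNA overlapped between the ages.

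The most abundant member, the 20 nt read from position 281, had 15.9, 15.8 and 9.82 RPM at 2M and 20.7, 22.8 and 24.8 RPM at 18M. All 18M libraries lay above all 2M libraries, as they did for 9.12% of all sequences tested. The difference did not pass the test over all sequences (log2 fold change 0.71 ± 0.22 SE, unadjusted p = 0.0118, adjusted p = 0.313, limma).

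DQ539904 was a ladder of rRNA reads with a common last base. Of its 59 sequences, 14 ended at the same base and covered every length from 15 to 28 nt, holding 78.7% of its reads, and a further 12.2% ended 1 base earlier. In the table, 5 rRNA-class sequences of up to 33 nt, matched to the mouse rRNA entry X82564, had the same end and extended the ladder upwards, at 0.906 to 3.01 RPM in sum. The name summed to 33.0, 40.5 and 63.6 RPM at 2M and to 100.4, 31.9 and 53.2 RPM at 18M. 18M replicate 1 lay far above the rest, and the ages overlapped (log2 fold change 0.33 ± 0.42 SE, adjusted p = 0.792, limma). Without 18M replicate 1 the log2 fold change was -0.09.

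The long reads of the ladder varied more across libraries than the short ones. Reads of 20 to 28 nt with the common end had 11.2, 16.4 and 33.8 RPM at 2M and 68.6, 14.03 and 32.3 RPM at 18M. Reads of 15 to 18 nt had 13.2, 15.4 and 10.5 RPM at 2M and 14.99, 10.8 and 10.5 RPM at 18M. The former thus ranged over 11.2 to 68.6 RPM and the latter over 10.5 to 15.4 RPM only. The rRNA class as a whole was 1175 to 1538 RPM and was highest in 18M replicate 1 too. The share of DQ539904 reads at the common last base was 75.1%, 79.4% and 70.8% at 2M and 84.5%, 79.8% and 82.5% at 18M, without overlap. This share was not tested, and the shares of ladder reads of 15 to 18 nt and of 20 to 28 nt overlapped between the ages.

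The ladder ran through toxic and nontoxic seeds. Its 14 lengths had 14 different seeds with viabilities of 9% to 87.9%. The 22 nt read, the most abundant one, had a viability of 14.8% and was at 2.95, 3.79 and 13.01 RPM at 2M and 22.98, 4.01 and 11.4 RPM at 18M. The 16 nt and 17 nt reads had viabilities of 65% and 73.5% and were at 4.65 and 3.95 RPM on average. The mean viability of the name was lowest in 18M replicate 1, where the long reads were highest, at 33.8%, and highest in 2M replicate 1, where they were lowest, at 51.2%.

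**Figure D3:**
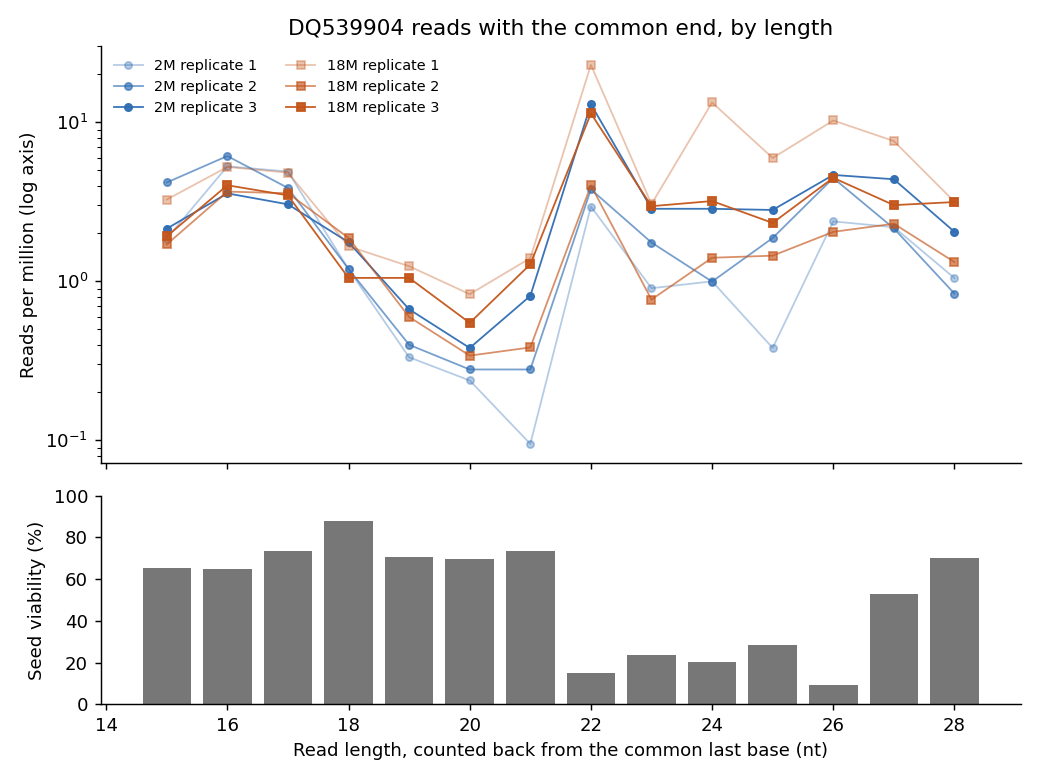
Reads of DQ539904 that share the last base, by read length in nt, with 1 line per library (upper panel, RPM on a log axis) and the 6mer seed viability of the read of each length (lower panel, percent). The reads of 22, 24 and 26 nt have viabilities of 14.8%, 20.5% and 9%, and those of 15 to 21 nt lie at 65% or above.

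Other rRNA names were lower. DQ555094 had 2.15, 3.99 and 4.48 RPM at 2M and 5.50, 2.65 and 3.33 RPM at 18M, and 10.5% of all member reads of 25 to 32 nt were under this name. DQ542358 (5.04 to 6.77 RPM, 40 sequences) could not be placed by the matching used here and did not differ by age beyond the spread of the libraries (log2 fold change -0.02 ± 0.16 SE, adjusted p = 0.967, limma).

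Members from miRNA genes were mostly altered copies of miRNA reads. Of these 212 sequences, 179 (20.4 RPM) differed at a single position from a miRNA-labelled read of the same length, 8 (6.88 RPM) differed at 2 positions and 25 (3.34 RPM) had no such partner. The single changes lay at positions 3 to 19 of the read. The median variant stood at 0.0845% of its miRNA-labelled partner, and the highest at 214%, a DQ687596 read whose partner had 0.0483 RPM. Changes between A and G or between C and T (transitions) made up 112 of the 179 sequences and 70.6% of their reads. The most common were A to G (33 sequences, 21.4% of reads), C to T (38, 19.3%) and G to A (25, 17.4%), and A to C held the fewest reads (2 sequences, 0.492%).

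Most of these variants came from few miRNAs, whose unchanged reads carry the same piRNA name and a miRNA label. miR-744-5p gave 69 single-change variants under DQ696996, at 16 of its positions. miR-532-5p gave 28 under DQ708952, miR-532-3p 31 under DQ713872, miR-3102-3p 25 under DQ720186 and miR-1839-5p 12 under DQ712837. The unlabelled reads were 1.31% of all reads of DQ696996, 1.70% of DQ708952, 1.33% of DQ713872, 0.857% of DQ720186 and 1.11% of DQ712837. The main DQ708952 read, with A15G relative to miR-532-5p (positions counted from the 5′ end of the read), was at 0.757 RPM against 313 RPM for its partner. The unlabelled reads of DQ696996 had 7.82, 5.87 and 8.49 RPM at 2M and 7.47, 6.62 and 9.96 RPM at 18M, and those of DQ708952 had 5.29, 6.58 and 5.62 RPM at 2M and 6.12, 7.63 and 6.16 RPM at 18M. Both overlapped between the ages (adjusted p = 0.877 and 0.727, limma).

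Some variants changed the seed. In 49 of the 179 sequences the changed base lay in positions 2 to 7, and these held 25.5% of the reads. The seed viability then was lower than that of the partner in 20 sequences and higher in 29, with differences from -43.4 to 50.4 percentage points and a median of 3.5. The difference of -43.4 was that of a DQ687596 read at 0.0548 RPM, whose partner had 0.0858 RPM.

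DQ702902 was a form of miR-376b-3p with 2 changes, A6G and A8G. miR-376b belongs to a large imprinted miRNA cluster expressed in brain (Mir376b, chr12:109723458-109723539, GRCm38, plus strand), and RNAs of this family are known substrates of ADAR enzymes, which turn adenosine into inosine, read as G. Reads of miR-376b-3p with both A as in the genome summed to 845 RPM on average, reads with A6G alone to 2458 RPM, reads with A8G alone to 1.48 RPM, and the member reads with both changes to 3.98 RPM. Only the unchanged form carried a miRNA label. A6G lies in the seed, and the viability of the seed was 66.8% for the unchanged form and 44.2% for the A6G form and for DQ702902.

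The share with the second change overlapped between reads with and without the first. G stood at position 8 in 0.140% to 0.176% of the reads with G at position 6, and in 0.128% to 0.244% of the reads with A at position 6. Relative to the most abundant A6G read, its 7 possible further A-to-G changes stood at 0.0709% to 0.252%, and A8G at 0.1498%.

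DQ702902 was at 3.33, 3.67 and 3.19 RPM at 2M and at 4.62, 4.61 and 4.48 RPM at 18M, so that the 2 ages did not overlap, as was the case, higher at 18M, for 6.02% of all names tested. The A6G form was at 2373, 2421 and 1903 RPM at 2M and at 2691, 2823 and 2537 RPM at 18M, also without overlap, and the unchanged form did overlap (811 to 986 RPM at 2M, 715 to 900 RPM at 18M). G stood at position 6 in 70.6%, 74.9% and 69.7% of miR-376b-3p reads at 2M and in 76.5%, 75.8% and 78.0% at 18M. Neither this share nor the sum of the A6G form was tested. The change of DQ702902 did not pass the test over all names (log2 fold change 0.34 ± 0.14 SE, unadjusted p = 0.0433, adjusted p = 0.488, limma).

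DQ718977 differed from miR-128-3p, an abundant neuronal miRNA, at G13T and G14C, outside the seed. It was at 1.91, 3.19 and 2.48 RPM at 2M and at 4.25, 2.69 and 3.97 RPM at 18M, against 8834 RPM for its main partner read, and the ages overlapped. The names DQ690353 (a C12T form of miR-26a-5p) and DQ548447 (a G6A form of miR-138-5p) held 0.758 and 0.511 RPM of such variants.

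The snRNA members were the only group by matched RNA whose libraries did not overlap between ages. They summed to 11.3, 10.7 and 11.1 RPM at 2M and to 15.1, 13.4 and 13.7 RPM at 18M. The exact permutation test gave p = 0.1, the smallest possible, and an adjusted p of 0.571 over the 10 groups of matched RNAs. Of all names tested, 6.02% likewise did not overlap and were higher at 18M, and 10.9% did not overlap and were lower. DQ551040 matched U2 snRNA, which pairs with the branch site of introns, and its main read was identical to bases of 11 snRNA genes of 191 nt in GENCODE, from base 145, among them Rnu2-10 (chr11:101658238-101658428, GRCm38, plus strand). The other main names, DQ541631 and DQ550765, matched U12 snRNA of the minor spliceosome (Rnu12, chr15:83149644-83149794, plus strand).
DQ551040 read: aCGCATCgacctggtattgcagt

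DQ551040 was at 4.43, 4.42 and 4.82 RPM at 2M and at 7.68, 6.31 and 6.49 RPM at 18M. Every 18M library lay above every 2M library, as was the case for 6.02% of all names tested. The difference had the smallest p of the 23 tested names but missed the adjusted threshold (log2 fold change 0.49 ± 0.15 SE, unadjusted p = 0.0117, adjusted p = 0.284, limma). DQ541631 overlapped between the ages (3.10 to 3.72 RPM at 2M, 3.43 to 3.995 RPM at 18M), as did DQ550765 (2.39 to 3.004 RPM and 2.94 to 3.47 RPM). The seed of the printed U2 read, marked by capitals, had a viability of 42.9%.

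**Figure D4:**
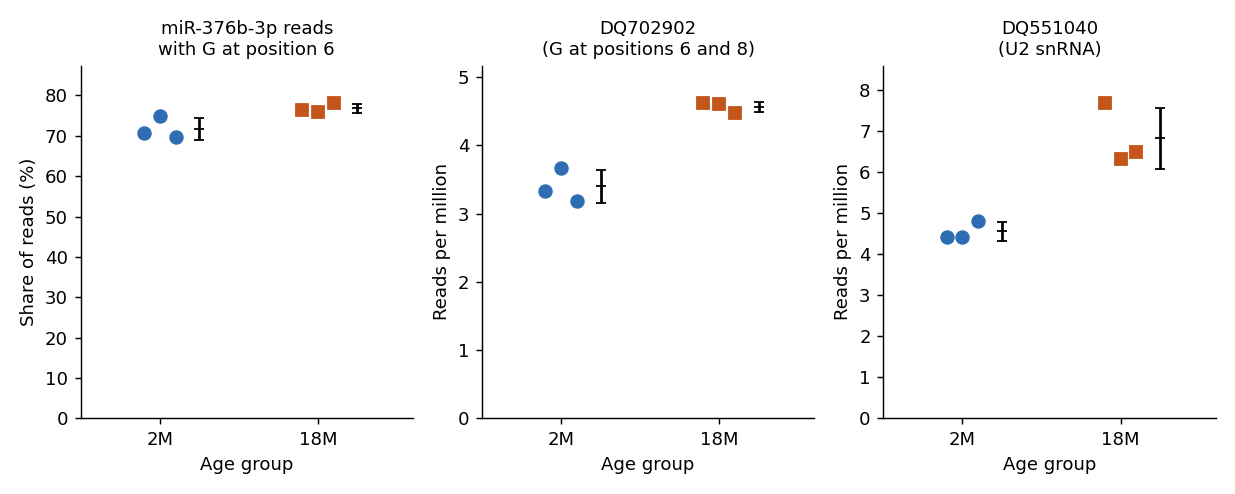
Share of miR-376b-3p reads with G at position 6 (percent, left), DQ702902 (RPM, middle) and DQ551040 (RPM, right) in each library (circles 2M, squares 18M), with the mean ± SD of 3 libraries beside the points. In each panel the 3 18M libraries lie above the 3 2M libraries, and neither name passed the adjusted test. The 2 names are the ones without overlap among the 23 tested, and 6.02% of all names tested likewise lay higher at 18M without overlap.

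Mitochondrial tRNA members came from the methionine tRNA mt-Tm (DQ540229) and the glutamate tRNA mt-Te (DQ719488). DQ540229 was at 4.24, 4.07 and 2.67 RPM at 2M and at 6.23, 2.52 and 2.74 RPM at 18M, and DQ719488 at 2.48, 1.76 and 1.86 RPM at 2M and at 4.31, 1.67 and 2.60 RPM at 18M. 18M replicate 1 was the highest library for both, as for the rRNA ladder, and both overlapped between ages.

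The length of the members was then compared with that of miRNA-labelled reads and of tRNA-class reads within each library. Most member reads were of the length of miRNAs, with 65.6% ± 2.67 (SD, n = 6) of 20 to 23 nt and a maximum at 22 nt (20.4%). In the window of 25 to 32 nt, in which most piRNA entries of the table lie, were 11.6% ± 2.19 of member reads, 0.618% ± 0.0348 of miRNA-labelled reads and 8.26% ± 0.900 of tRNA-class reads (SD, n = 6). The members were higher in 6 of 6 libraries in both comparisons (exact sign-flip test, p = 0.031, the smallest possible, adjusted p = 0.0375 over 6 comparisons). DQ539904 held 53.3% of the member reads in this window and DQ540915 15.3%. When each sequence was counted once instead of by its reads, both differences reversed, to -1.38 percentage points against miRNA-labelled reads and to -5.01 against tRNA-class reads.

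**Figure D5:**
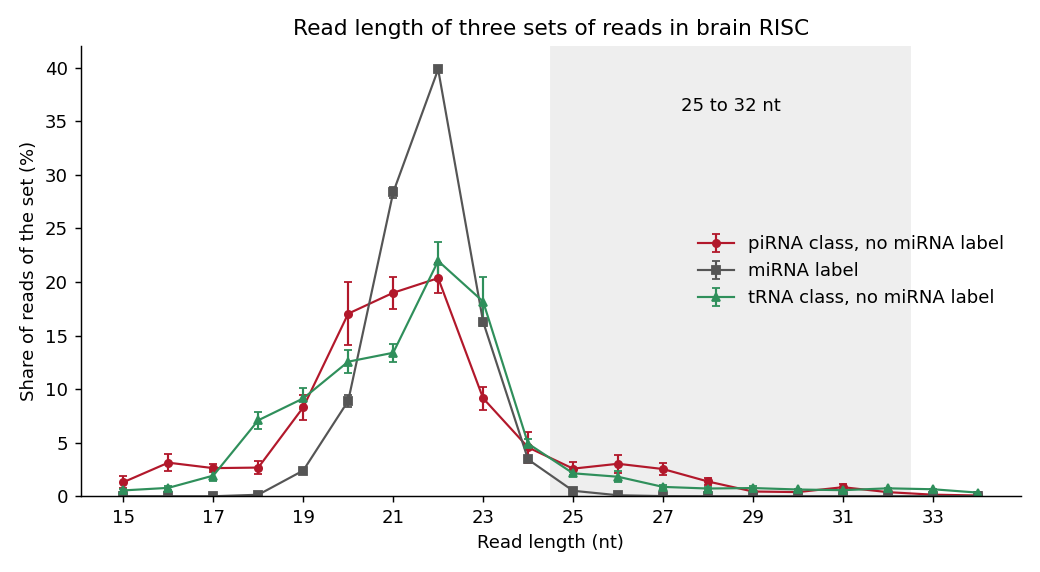
Share of reads (percent) by read length (nt) for members, miRNA-labelled reads and unlabelled tRNA-class reads, as mean ± SD over 6 libraries, with 25 to 32 nt shaded. All 3 sets peak at 22 nt, at 20.4% for the members, and the members hold 11.6% of their reads in the shaded window.

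The first base did not follow the uridine preference known for piRNAs. T started 27.5% ± 1.85 of member reads, against 73.4% ± 1.74 of miRNA-labelled and 46.9% ± 3.43 of tRNA-class reads (SD, n = 6), and members were lower in 6 of 6 libraries in both comparisons (exact sign-flip test, p = 0.031, adjusted p = 0.0375). A was the most common first base (46.6% ± 2.49), and C (16.2%) and G (9.72%) were less common than T. The lead of A rested on DQ540915, without which T started 31.9% ± 1.97 and A 31.6% ± 5.50 of member reads. Among 7SL members 63.1% of reads started with A and 23.4% with T. A at base 10, which marks secondary piRNAs, stood in 18.2% ± 1.26 of member reads and in 30.8% ± 1.08 of miRNA-labelled reads (SD, n = 6, not tested). In tRNA-class reads its share was 18.1% ± 1.58, near that of the members.

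The mean 6mer seed viability of member reads was 56.7% ± 3.27, that of miRNA-labelled reads 57.9% ± 0.263 and that of tRNA-class reads 62.4% ± 0.823 (SD, n = 6). Members were higher than miRNA-labelled reads in 3 of 6 libraries (difference -1.19 ± 3.37 SD, exact sign-flip test, p = 0.469) and lower than tRNA-class reads in 6 of 6 (p = 0.031, adjusted p = 0.0375). The mean hid a wide spread, with 47.6% of member reads at a viability of at least 70% and 25.2% to 37.03% by library below 40%, against means of 25.6% and 13.1% of miRNA-labelled reads. For tRNA-class reads these means were 46.2% and 13.5%, so that the high share at 70% or above was not particular to the members. Without DQ540915 the member means were 20.3% and 39.8%. By matched RNA the mean was 68.7% for 7SL, 43.7% for rRNA and 42.0% for miRNA genes. Without DQ540915 the difference from miRNA-labelled reads became -11.3 percentage points (exact sign-flip test, p = 0.031).

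The 244 different seeds of the members were dominated by DQ540915 and DQ539904. UAGCGA (viability 87.1%) held 20.01% of member reads, AGCGAG (70.9%) 9.53%, CAUAGC (8.2%) 7.13%, GCCCUC (14.8%) 5.22% and AUAGCG (91.1%) 3.33%.

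Between the ages the members as a whole did not separate. The sums given above averaged 227 RPM (SD 10.6) for the 3 2M libraries and 268 RPM (SD 50.6) for the 3 18M libraries, which did not pass an exact permutation test (p = 0.3, adjusted p = 0.84 over 14 measures). The share of 25 to 32 nt differed by 0.0171 percentage points (p = 1), the share starting with T by 0.302 percentage points (p = 0.7) and the mean seed viability by 0.0386 percentage points (p = 1, all exact permutation tests), each less than the SD of either age.

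No single member passed the adjusted threshold. Of all RNA names 0.094% were called (2 of 2127, limma), and 0 of the 23 members with a mean of at least 1 RPM. At an unadjusted p under 0.05 stood 2 of the 23 names, DQ551040 and DQ702902, both higher at 18M, against 9.64% of all names (3.86% higher and 5.78% lower at 18M). These 2 were also the only ones whose libraries did not overlap higher at 18M (background 6.02%), and none did so lower at 18M (background 10.9%). DESeq2 and edgeR on recovered reads also called 0 of the 23 (DESeq2 called 1.74% of all names).

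Of all read sequences 0.123% were called (20 of 16220, limma), and 0 of the 39 members of at least 1 RPM, with 3 at an unadjusted p under 0.05, all higher at 18M, against 10.8% of all sequences (6.54% higher and 4.3% lower at 18M). Of the 39, 5 did not overlap and were higher at 18M (background 9.12%) and 0 were lower (background 7.94%). The log2 fold change was above 0 for 25 of the 39 members (background 50.9%), with a median of 0.13 beside 0.01 over all sequences tested. The 10 most abundant members were all overlapping reads of DQ540915 or DQ539904, so that the 39 are not independent, and these counts were not tested. DESeq2, which called 1.43% of all sequences, and edgeR called 0 of the 39. The other 724 members, below 1 RPM, were not part of this test. With a minimum of 0.3 RPM, 131 members were tested and 0 were called.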

How the data were processed

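Short RNAs pulled down with Argonaute proteins were sequenced from 3 mice of 2 months and 3 of 18 months. Per the methods of the study, the authors trimmed the reads (Trim Galore per the submitters' notes), removed rare reads, matched the rest by BLAST to lists of mouse small RNAs and removed artificial sequences with the SPOROS pipeline. The deposited RPM values were scaled by the authors to the same total in each library, and the deposited viability score of each 6mer seed is a mean over 3 mouse cell lines. A deposited summed signal over the 6 libraries was not used. The genome build is not given in the sources used here. Since only the best match names a read, a read of another RNA can carry a piRNA name, and the removal of rare reads limits what is listed.

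Whole reads were recovered from the RPM steps (100% of values within 0.05 of a whole read), giving 19272046 to 25080484 reads per library, which cover counting error only. Members and lists were chosen with earlier results of these data known. Reads were matched to RefSeq miRNAs and to transcripts of GENCODE release 21 (GRCm38), with up to 2 edits for 20 nt or more. Ages were compared with limma 3.58.1 (R 4.3.3) on log2(RPM + 1) for sequences or names averaging 1 RPM or more. The Benjamini-Hochberg adjustment ran over all features, with a threshold of 0.05, and single values were compared by two-sided exact permutation tests. Members and other classes were compared within libraries by a two-sided exact sign-flip test. edgeR 4.0.16 and DESeq2 1.42.0 on recovered reads, other scalings, filters and pseudocounts, and fits without each library were alternatives. On data simulated with a dispersion of 0.02, the limma fits called 200 of 200 names and 200 of 200 sequences changed 4-fold, and 10 unchanged ones of each. This dispersion was set and not estimated from the members, and DQ539904 spread more widely (SD 16.0 RPM at a mean of 45.7 at 2M, 35.0 at 61.8 at 18M). Smaller changes, such as those of the named members, and changes in members of such a spread were not simulated. The power to find either is therefore not known. The text names the 10 most abundant names and sequences, and names that did not overlap between ages at an unadjusted p under 0.05. Other names were chosen after their values were seen.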

Additional observations from a re-analysis of the deposited data

How the results depend on the processing

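No member name or sequence was called under any alternative run, and the sum of member reads was higher at 18M in each, by 16.98 to 67.6 RPM when single libraries were left out. With the miRNA-labelled rows included it was 1585 RPM at 2M and 1754 RPM at 18M (exact permutation test, p = 0.1, the smallest possible). The other age differences of the members were near 0 and changed sign, and the cause was not tested. The share of 25 to 32 nt differed by -0.0773 percentage points for 26 to 31 nt, by -0.347 with each sequence counted once, and by -1.73 to 1.48 without single libraries. The share starting with T differed by -0.945 with the miRNA-labelled rows included, by -0.265 without DQ540915, by -0.349 with each sequence counted once, and by -0.894 to 1.43 without single libraries. The mean viability differed by -2.68 without DQ540915, by -0.499 for sequences of at least 1 RPM, by -0.225 for the share under 40% with its sign turned, and by -1.72 to 2.43 without single libraries.

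Against miRNA-labelled reads, the difference in the share of 25 to 32 nt became -1.38 with each sequence counted once (exact sign-flip test, p = 0.0625), and the difference in viability, not called in the main test, became -20.05 with the labelled rows, -11.3 without DQ540915 and -5.28 with each sequence counted once (exact sign-flip test, p = 0.031 each). Against tRNA-class reads, the share of 25 to 32 nt differed by -4.96 with the labelled rows and by -5.01 with each sequence counted once (p = 0.031 each, exact sign-flip test). Without single libraries the differences from miRNA-labelled reads were 10.3 to 11.6 for the window, -46.4 to -45.4 for T and -1.91 to -0.233 for viability, and those from tRNA-class reads 2.71 to 3.69, -20.6 to -18.8 and -6.22 to -4.64. With 5 libraries the smallest possible p is 0.0625, so that none of these can pass.

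The number of sequences called was 12 at a minimum of 10 RPM, 35 with scaling by median of ratios, 31 in limma without its trend, 9 with edgeR, 232 with DESeq2 and 0 to 6 without single libraries, in place of 20. The number of names called was 9 at 10 RPM, 0 at 0.3 RPM, 5 with scaling by median of ratios, 0 in limma without its trend, 4 with edgeR, 37 with DESeq2 and 0 to 0 without single libraries, in place of 2. Same-numbered libraries correlated at -0.103, -0.109 and -0.0997 in their deviations, so that the numbers were not taken to pair them. The replicate block gave 0 sequences and 1 name called, and 0 members, with differences by age of 41.5 RPM (exact sign-flip test, p = 0.25, the smallest possible), 0.0171 for the window (p = 1), 0.302 for T (p = 0.75) and 0.0386 for viability (p = 1).

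The log2 fold change of DQ542358 was 0.0558 with median-of-ratios scaling, 0.0358 with edgeR and 0.0543 with DESeq2, and that of DQ540229 was 0.00787 with a pseudocount of 5, 0.0544 with median-of-ratios scaling, 0.10 with edgeR and 0.11 with DESeq2. Without single libraries it spanned -0.0911 to 0.0744 for DQ542358, -0.34 to 0.18 for DQ540229, -0.0924 to 0.72 for DQ539904, -0.16 to 0.27 for DQ555094 and -0.0494 to 0.21 for DQ696996. It spanned -0.0463 to 0.0650 for the member sequence of rank 3, -0.11 to 0.27 for rank 5, -0.21 to 0.74 for rank 9 and -0.35 to 0.14 for rank 28. The adjusted p of DQ551040 was 0.225 to 0.674 over the alternatives, that of DQ702902 0.380 to 0.860 and that of the most abundant sequence 0.237 to 0.689. Member sequences below 0.3 RPM were not tested singly and entered the tests only within sums.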
